A study of Mus musculus with 2 samples.

Results

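The cytochrome P450 genes were followed in ureters of mouse embryos at E18.5 with and without functional Pparg. Members were all array genes whose symbol reads Cyp, a family number, a subfamily letter and a member number. The arrays held 96 such genes out of 29923, measured by 121 probes with 484 spots per array, and these fell into 16 families. Total RNA of pooled ureters was compared directly on 2 two-colour arrays, and each array set a Pparg-cKO pool against a control pool. Replicate 1 held female pools and replicate 2 male pools, and the dyes were exchanged between them, so that sex, dye and array change together. The arrays shared a slide.

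Pparg-cKO embryos were Pax2-cre/+; Pparg(fl/fl), and control embryos were labelled Pparg(fl/?), with the state of the other allele not given. Per the study's methods, the controls were littermates without cre. All pools came from the NMRI outbred strain. Cre removes exons 2 and 3 from the floxed gene. Per the study, Pax2-cre acts in the ureteric epithelium and its precursor, the nephric duct, and in collecting ducts, and the mesenchyme and smooth muscle of the ureter are not named among its targets. Each pool is a mixture of the whole ureter wall. A change of a transcript in such a mixture cannot be split into fewer cells of a type and less RNA per cell.

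P450 enzymes are heme proteins of the endoplasmic reticulum or the mitochondrion, and most insert an oxygen atom into their substrate. Members of families 1 to 3 mostly oxidise drugs, dietary compounds and arachidonic acid, family 4 hydroxylates fatty acids near the end of their chain, and the higher-numbered families make or break down steroids, sterols, bile acids, vitamin D and retinoic acid. PPARG is a nuclear receptor for fatty acids and their oxidation products. It binds DNA with RXR at direct repeats of the hexamer AGGTCA spaced by a single base. Several Cyp4a genes are known targets of its relative PPARA in liver, and fatty acid products of P450 enzymes can act as ligands of these receptors.

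The probes behind the main results are shown by their opening 30 of 60 bases, 5′ to 3′, because closely related P450 genes can share a probe and so a signal. No base is in capitals here, since none of these probes shared a run of over 14 bases with a probe of another gene. Probes were compared with other probes and not with transcripts, so that this does not show that a probe reads a single gene.
Cyp4f15: ctagttggtcttactctattgcccaataga
Cyp4f39: acaagactccacccttgggatttgattcca
Cyp2f2: aatgacgtgacaaaggtgaaatacccgtct
Cyp4a12a: atgcatatctgaaagagccaattttcaacc
Cyp4a12b: cctttcagcttacatttaagagtcttgcca
Cyp3a25: cactaattccagttagttacatccattctg
Cyp3a57: ccagaaaaacccatcatcctaaagtttgtg
Probe positions, as the array design gives them on mm9, were chr17:32840088-32840147 for Cyp4f15, chr17:32629616-32629675 for Cyp4f39, chr7:27918570-27918629 for Cyp2f2, chr4:115005258-115005317 for Cyp4a12a, chr4:115111580-115111639 for Cyp4a12b, chr5:146788879-146788938 for Cyp3a25 and chr5:146151322-146151381 for Cyp3a57. The Cyp4a12a probe also lists a transcript of Cyp4a12b, so its signal may hold both. Whether a probe lies in a coding exon or beyond it was not analysed here.

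To ask whether the members shared sequence near their start sites, the 250 bases before the start of each RefSeq transcript (GRCm38.p6) were searched on both strands. The promoters of the fallen gene Cyp4f15, of the risen gene Cyp2f2 and of the related pair Cyp3a25 and Cyp3a57 are shown on the strand of the gene, with every AGGTCA or its reverse complement TGACCT in capitals.
Cyp4f15: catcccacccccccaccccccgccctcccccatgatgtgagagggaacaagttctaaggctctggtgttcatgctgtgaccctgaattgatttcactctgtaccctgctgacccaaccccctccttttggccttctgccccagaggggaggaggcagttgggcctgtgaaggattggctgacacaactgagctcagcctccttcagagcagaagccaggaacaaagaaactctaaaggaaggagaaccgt
Cyp2f2: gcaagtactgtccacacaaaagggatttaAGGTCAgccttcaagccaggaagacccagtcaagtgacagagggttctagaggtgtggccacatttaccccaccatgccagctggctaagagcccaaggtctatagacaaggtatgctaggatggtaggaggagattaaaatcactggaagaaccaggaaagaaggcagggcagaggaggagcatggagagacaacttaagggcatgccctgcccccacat
Cyp3a25: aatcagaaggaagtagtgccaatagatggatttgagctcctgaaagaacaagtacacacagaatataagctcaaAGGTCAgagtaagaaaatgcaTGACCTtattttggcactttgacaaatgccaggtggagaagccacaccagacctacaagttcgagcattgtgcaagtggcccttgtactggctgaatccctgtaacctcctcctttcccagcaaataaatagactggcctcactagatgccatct
Cyp3a57: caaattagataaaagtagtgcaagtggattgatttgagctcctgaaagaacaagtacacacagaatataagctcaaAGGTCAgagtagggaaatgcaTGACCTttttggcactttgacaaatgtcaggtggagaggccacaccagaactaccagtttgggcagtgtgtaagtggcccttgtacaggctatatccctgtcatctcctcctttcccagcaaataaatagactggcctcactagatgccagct
They lie at chr17:32685409-32685658, chr7:27119705-27119954, chr5:146009619-146009868 on the minus strand and chr5:145345019-145345268, the others being on the plus strand. Cyp4f15 held no such hexamer in this window and Cyp2f2 held 1, which begins 221 bases before the start. Cyp3a25 and Cyp3a57 each held 2, facing each other with 15 bases between them, and Cyp3a59 held the same pair. In a global alignment the windows of Cyp3a25 and Cyp3a57 were identical at 224 of 252 columns (88.9%). Of 80 promoters of 70 P450 genes in the table, 19 (23.8%) held the hexamer, against 14.0% of all 32851 promoters. The full direct repeat AGGTCANAGGTCA was in none of the P450 promoters and in 0.0335% of all promoters. The looser form AGGNCANAGGNCA, which includes the strict one, was in the promoters of Cyp2d9, Cyp2d10 and Cyp2d40 and in 0.338% of all promoters. Promoters of Cyp4a12a and Cyp4a12b were not searched. These are matches of letters in a short window and not sites of binding.

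Higher and lower follow the deposited ratios, which are titled as Pparg-cKO against control. They oppose the dye labels on both arrays: across probes the deposited ratio followed red over green on the female array (r = 0.996) and green over red on the male array (r = -0.998 with red over green), where the labels put control RNA in red on the female array and Pparg-cKO RNA in red on the male array. The Pparg-cKO pool is therefore the pool that the deposited ratios name so. The deposited direction is also that used in the study's own text and is taken as the likely one. If the dye labels were right, every higher and lower would be exchanged, while sizes and p-values stay. Pparg itself gave processed signals of 12357 (Pparg-cKO) and 6113 (control) for the female pair and of 12930 and 6688 for the male pair, a mean log2 ratio of 0.97 (limma adjusted p = 0.0373). The position of its probe against the deleted exons was not analysed here, so that Pparg does not check the labels. Deleting these exons leaves the rest of the gene in place, so that a transcript without them can still be made, and a higher signal need not go against the genotype. The 6 urothelial and 4 smooth muscle markers were above background in all 4 pools. Of the former 5 and of the latter 1 were lower on both arrays, against 26.2% of all genes. Upk1a, a tetraspanin of the urothelial plaque, went from 14897 to 4177 in the female pair and from 12494 to 5461 in the male pair (limma adjusted p = 0.0685).

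Most P450 genes were faint in the ureter. The rule for testing was a probe well above background in at least 1 pool on both arrays, and 60 of the 96 genes (62.5%) met it, against 75.2% of all genes. Another 4 were above background in 1 pool only and 32 in none. Processed signals of at least 100 in the brighter pool of each array, the minimum of the fold rule, were reached by 20 P450 genes (20.8%), against 46.8% of all genes. Among those tested, 45 were above background in all 4 pools, 4 in 3 pools and 11 in 2. Of these 11, 9 were detected in the green channel only, which is the control pool of the female array and the Pparg-cKO pool of the male array in the deposited direction. Over all spots of the arrays, 66.2% and 67.6% were well above background in red and 76.8% and 77.3% in green, the female array first. The remaining pair, Cyp3a25 and Cyp3a57, was detected in the control pools only, and so entered the test through the group in which it is high.

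As a group the P450 genes had a median near 0. Over the 60 tested genes the median log2 ratio was -0.01 on each array, and over all genes tested it was -0.01 (female) and 0.01 (male). On both arrays 14 genes (23.3%) lay above 0 and 19 (31.7%) below, against 26.6% and 26.2% of all genes. Between the arrays 27 of the 60 changed sign, against 10626 of all 22499 genes tested. For 37 genes (61.7%) the 2 pools were within 1.2-fold of each other on both arrays, against 65.3% of all genes. The tails held the differences. The fold rule, at least 1.5-fold in the same direction on both arrays with the signal minimum above, was passed by 1 member that was higher in the Pparg-cKO pools and 1 that was lower, of 20 that could pass; over all genes it was passed by 0.792% upwards and 1.05% downwards. limma called 3 members higher (5.0%) and 1 lower (1.67%) at an adjusted p under 0.05, against 0.382% and 0.369% of all 22499 genes tested. Of the 3, Cyp4a12a entered the test on the male array through the Pparg-cKO pool only, and its probe also lists a transcript of Cyp4a12b, so that these are not 3 independent observations. Run on the deposited ratios, limma called no gene at all, with an adjusted p of 0.533 for each of these 4 members. An unadjusted p under 0.05 was found for 9 of the 60 genes (15.0%) and for 8.51% of all genes.

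**Figure D1:**
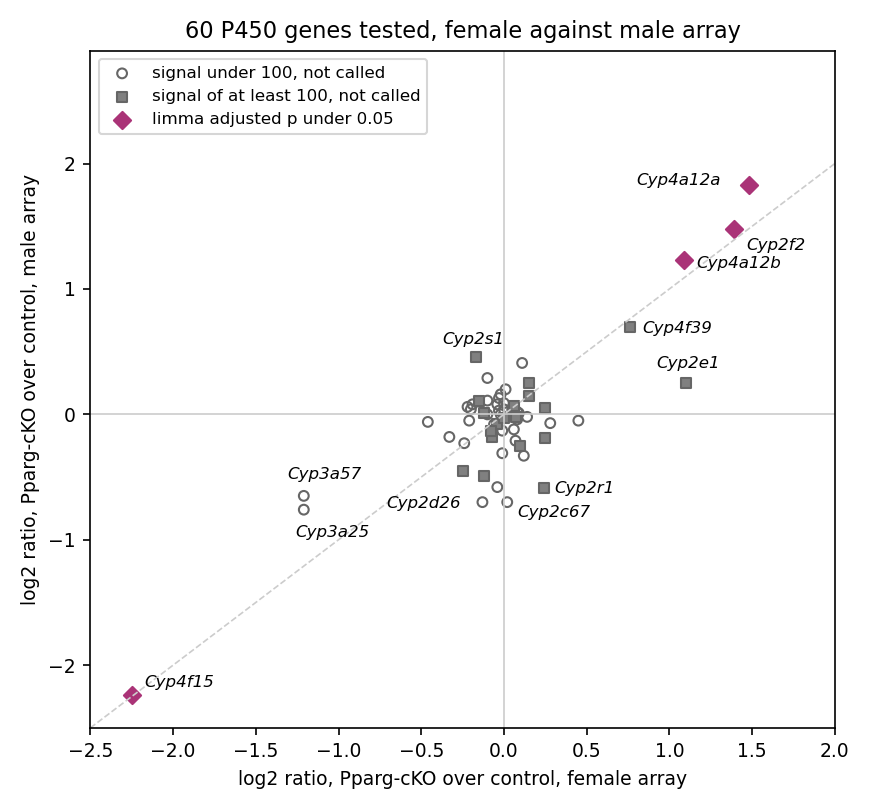
Log2 ratio of Pparg-cKO over control on the female array (x axis) and the male array (y axis) for the 60 P450 genes tested, with the dashed line marking equal ratios. Diamonds are the 4 genes called by limma, filled squares are other genes with processed signals of at least 100, and open circles are fainter genes; most points lie near 0, Cyp4f15 lies at -2.25 and -2.24, and Cyp2f2, Cyp4a12a and Cyp4a12b lie above 1 on both arrays.

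Family 4, the fatty acid hydroxylases, held the 1 member that fell and 2 of the 3 that rose in limma. These 2, Cyp4a12a and Cyp4a12b, are not independent observations. The calls were 14.3% (higher) and 7.14% (lower) of its genes tested, against 0.382% and 0.369% of all genes. Of its 22 genes 14 were tested. On both arrays 7 of them (50%) were higher and 1 (7.14%) lower, against 26.6% and 26.2% of all genes, and 6 differed in sign. Cyp4f15, a member of a subfamily that hydroxylates eicosanoids and long-chain fatty acids, had processed signals of 153 in the female control pool, 16.3 in the female Pparg-cKO pool, 116 in the male control pool and 12 in the male Pparg-cKO pool. Both control pools were thus far above both Pparg-cKO pools, by 9.37-fold within the female and 9.61-fold within the male array. On the log2 scale the mean difference was -2.25 ± 0.01 (SD, n = 2 arrays; limma adjusted p = 0.0062). Log2 ratios throughout come from spots corrected by normexp with an offset of 50, which draws the ratio of faint spots towards 0. The offset covers only part of the gap to the ratios of processed signals. For Cyp4f15 the log2 ratio was -2.84 without the offset and -3.26 with processed signals.

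Cyp4f39, the mouse counterpart of the human enzyme that makes ω-hydroxylated ultra-long-chain fatty acids for skin ceramides, went the other way. Its signals were 85.5 in the control and 158 in the Pparg-cKO pool of the female pair, and 106 and 178 in the male pair. Both Pparg-cKO pools were above both control pools, by 1.85-fold and 1.67-fold within arrays. The log2 ratios were 0.76 and 0.70, so that the gene passed the fold rule, and the limma adjusted p was 0.082. With normexp without the offset this p was 0.0126, and over the 7 alternatives with a test it ran from 0.0126 to 0.533.

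Both genes lie in a Cyp4f cluster on chromosome 17 whose outermost probes are 458.6 kb apart, and their probes are 210.5 kb apart. The 3 neighbours that were above background had pools within 1.2-fold of each other on both arrays. Cyp4f17 had signals of 253 and 273 in the female pair and of 271 and 296 in the male pair, control first. Cyp4f16 had 381 and 398, then 415 and 410. Cyp4f13 had 369 and 370, then 403 and 426. The mean log2 ratios of these 3 genes ran from 0.02 to 0.15, with limma adjusted p of 0.796 or more. The remaining members there, Cyp4f14, Cyp4f37, Cyp4f40 and the pseudogene Cyp4f41-ps, were not well above background in any pool. Cyp4f18, a subfamily member on chromosome 8 that is known from neutrophils, had log2 ratios of 0.10 and -0.25, and its second probe gave 0.15 and -0.21.

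Cyp4a12a and Cyp4a12b, ω-hydroxylases of arachidonic acid known for their male bias in adult mouse kidney, were called higher in limma, which tests the mean of both arrays, and were higher on each array. For Cyp4a12a the control signals were 3.48 (female) and 4.07 (male), and the Pparg-cKO signals were 47.2 and 59.9. The control pool was well above background on the female array only. The limma adjusted p of 0.0168 rests in part on the male array, which the gene entered through the Pparg-cKO pool only, and is no support for a difference by itself. Cyp4a12b went from 6.94 to 35.9 and from 9.61 to 44.1, with all 4 pools above background and a mean log2 ratio of 1.16 ± 0.09 (SD, n = 2 arrays; limma adjusted p = 0.0248). For Cyp4a12b the Pparg-cKO pools did not overlap the control pools, and the processed ratios were 5.18 and 4.59. For Cyp4a12a the ratio on the female array was 13.6, and none is given for the male array, where the control pool was not well above background. All these signals are below 100, so neither gene could pass the fold rule. The pair is not 2 independent observations, because the Cyp4a12a probe lists transcripts of both genes. Markers of the kidney proximal tubule, where these genes are abundant in the adult, were also measured, and 5 of 7 were tested. All 5 had negative log2 ratios on both arrays, against 26.2% of all genes. Their median log2 ratios were -0.17 (female) and -0.54 (male). The list summed to signals of 229 and 183, then 258 and 132, control first, and its markers Kap and Slc22a8 were not well above background in any pool. Their part in the Cyp4a12 values was not tested.

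Other Cyp4a genes on chromosome 4 gave a mixed picture. The brightest probes of Cyp4a10 and Cyp4a31 had signals between 19.0 and 26.1 in every pool and mean log2 ratios of 0.05 and 0.02. These 2 probes share a run of 34 bases and are not separate measurements. Among their dimmer probes, singled out after their values were seen, a probe of Cyp4a31 went from 2.3 to 8.98 and from 3.25 to 10.5, with log2 ratios of 0.43 and 0.38, and a probe of Cyp4a10 went from 8.08 to 13 and from 7.89 to 12.5, with 0.24 and 0.19. The latter probe also lists a transcript of Cyp4a32, and it shares a run of 27 bases with a Cyp4a31 probe. The remaining Cyp4a10 probe went from 8.09 to 6.55 and from 7.66 to 5.58, with -0.06 and -0.13. The probes of these genes therefore disagree. Cyp4a14, a well-known PPARA target in liver, was between 2.18 and 3.89 in all pools and was detected in 2 of them. Cyp4a29, Cyp4a32 and Cyp4x1 were above background in 1 pool only and were not tested. Cyp4b1, a fatty acid and xenobiotic hydroxylase known from bladder and lung, had signals of 105 and 106 in the female pair and of 88.5 and 94.0 in the male pair, a mean log2 ratio of 0.04. Cyp4v3, a fatty acid hydroxylase, had a mean log2 ratio of 0.20 (limma adjusted p = 0.721).

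**Figure D2:**
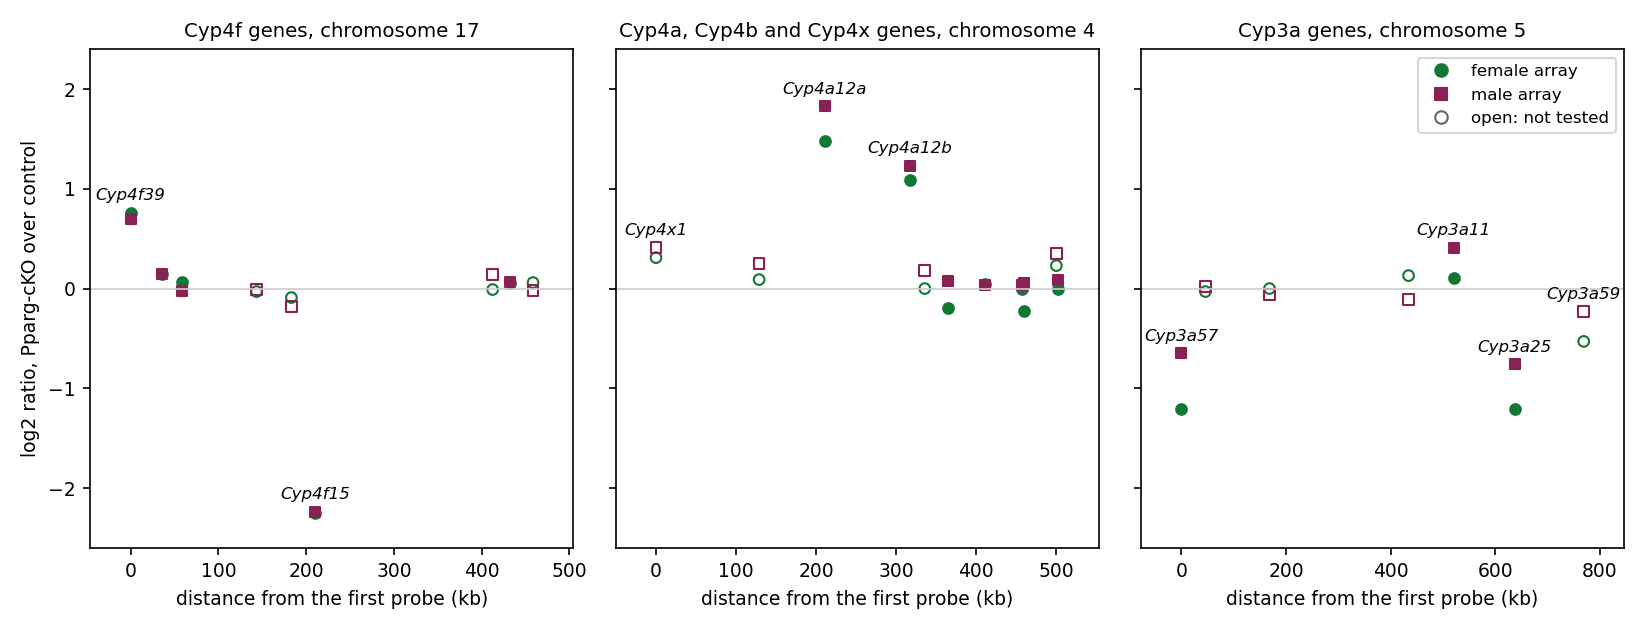
Log2 ratio of Pparg-cKO over control (y axis) against the distance in kb from the first probe of each cluster (x axis), for the Cyp4f genes of chromosome 17, the Cyp4a, Cyp4b and Cyp4x genes of chromosome 4 and the Cyp3a genes of chromosome 5. Circles are the female array, squares the male array, and open symbols are genes that were not tested; Cyp4f39 and Cyp4f15 stand apart in opposite directions within 210.5 kb, while Cyp4f16, Cyp4f17 and Cyp4f13 lie near 0.

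Family 2 is the largest, with 45 genes, of which 29 were tested. Only 1 was called, Cyp2f2, an enzyme that oxidises naphthalene and is known as a product of airway club cells. Its control signals were 5.44 and 9.75, and its Pparg-cKO signals 47.3 and 58.0, the female pool first. Both Pparg-cKO pools stood above both control pools, by 8.68-fold and 5.95-fold within arrays. This gave a mean log2 ratio of 1.43 ± 0.07 (SD, n = 2 arrays; limma adjusted p = 0.0135), and the deposited ratios gave 2.83. Its signals too are below the minimum of the fold rule. Scgb1a1, the defining marker of club cells, was between 7.25 and 11.1 in the 4 pools with a mean log2 ratio of 0.15, and the other markers of that list, Scgb3a2 and Sftpb, were not well above background in any pool. The summed signal of the 3 markers was 10.6 to 13.8 over the 4 pools. The nearest P450 neighbour on the chromosome, Cyp2t4, had log2 ratios of 0.28 and -0.07.

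Cyp2e1, which oxidises ethanol, acetone and fatty acids, had signals of 152 in the female control pool, 365 in the female Pparg-cKO pool, 357 in the male control pool and 402 in the male Pparg-cKO pool. The female control pool stood apart from the other three. The log2 ratios were 1.1 (female) and 0.25 (male), the second probe gave 1.25 and 0.19, and the limma adjusted p was 0.469.

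The Cyp2c and Cyp2d genes, epoxygenases and drug-oxidising enzymes that are abundant in liver, gave no call among the 15 tested. Their largest differences were on the male array. Cyp2d26 had signals of 33.5 and 28.3 in the female pair, control first, and of 52.6 and 26.5 in the male pair, with log2 ratios of -0.13 and -0.70 (limma adjusted p = 0.602). Among genes singled out after their values were seen, Cyp2c67 had 18.8 and 19.2, then 47.1 and 23.2, Cyp2c68 had 12 and 11.3, then 28.7 and 12.6, and Cyp2c38 had 204 and 191, then 195 and 133. The probes of Cyp2c67 and Cyp2c68 share a run of 25 bases. For Cyp2d26, Cyp2c67 and Cyp2c68 the male control pool was the high one and the other three were close together. Most markers of hepatocytes had the same order: Alb had signals of 690 and 598, then 1540 and 725, and Afp 454 and 417, then 1150 and 487. Ahsg, Apoa1, Apoh and Fgb were likewise high in the male control pool. Others did not. Trf, the brightest of the list, had 2316 and 1352, then 2652 and 1463, and passed the fold rule as lower (limma adjusted p = 0.0608), and Apob was highest in the female control pool, with 10.3 and 2.85, then 6.86 and 6.12. Over the 8 hepatocyte markers the summed signal was 4099 and 2974, then 6782 and 3337, with median log2 ratios of -0.16 (female) and -0.96 (male). Of the 8, 7 were lower on both arrays, against 26.2% of all genes, and none was at 0. Over the 8 Cyp2c genes tested the medians were -0.02 and -0.32, and over the 7 Cyp2d genes -0.12 and -0.05. What part the liver markers have in these values was not tested.

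Of the Cyp2j genes, epoxygenases of arachidonic acid outside the liver, Cyp2j9 had signals of 64.4 and 96.3, then 81.7 and 77.3, with log2 ratios of 0.45 and -0.05 (limma adjusted p = 0.816). Its female Pparg-cKO pool was the highest and its female control pool the lowest. Cyp2j6 had signals of 376 and 360, then 367 and 323, a mean log2 ratio of -0.12 (limma adjusted p = 0.852), and none of the 4 Cyp2j genes tested was called. Cyp2u1, a fatty acid hydroxylase, had signals of 8133 and 9786, then 9716 and 9896, from its brightest probe, with log2 ratios of 0.25 and 0.05. That probe shares a run of 35 bases with a probe of Ldlrad3, and the other two Cyp2u1 probes gave signals of 3.56 to 18.3, so that it may not report Cyp2u1. Cyp2s1, an epithelial P450, and Cyp20a1, whose substrate is not known, had mean log2 ratios of 0.15 and 0.03 and differed in sign between the arrays. Cyp2w1 had a mean log2 ratio of 0.11. The subfamilies Cyp2a, Cyp2b and Cyp2g were nearly silent, with 3 of 9 genes tested and mean log2 ratios from -0.00 to 0.05.

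**Figure D3:**
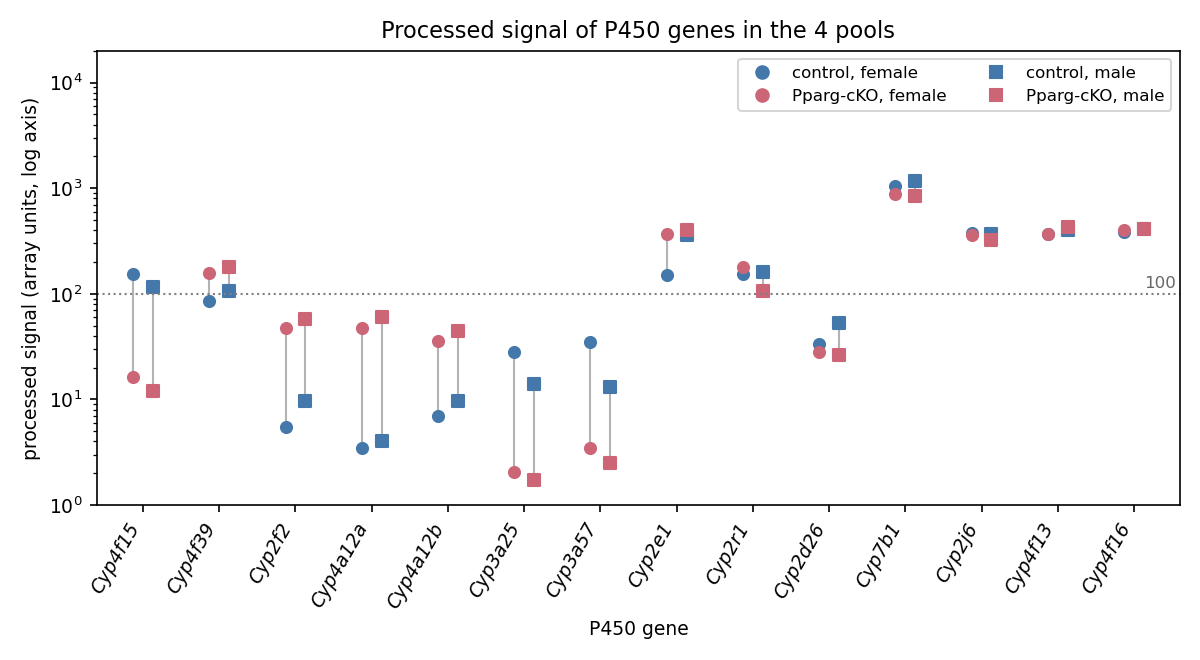
Processed signal in array units (log axis) of 14 P450 genes in the female (circles) and male (squares) control and Pparg-cKO pools, joined by a line within each array; the dotted line marks the signal minimum of the fold rule. Each gene has its own probe, so heights are comparable within a gene only: the control pools are above the Pparg-cKO pools on both arrays for Cyp4f15, Cyp3a25 and Cyp3a57 and below them for Cyp4f39, Cyp2f2, Cyp4a12a and Cyp4a12b.

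In family 3, whose enzymes oxidise drugs and steroids in liver and intestine, 4 of 8 genes were tested and none was called. Cyp3a25 had signals of 28.3 in the control and 2.06 in the Pparg-cKO pool of the female pair, and of 13.9 and 1.74 in the male pair. Cyp3a57 had 34.8 and 3.48, then 13.2 and 2.5. Both genes were well above background in the control pools only, where the female pool was the higher. Averaged over both arrays, Cyp3a25 was at least 1.82-fold and Cyp3a57 at least 1.87-fold lower in the Pparg-cKO pools. This bound is taken against the lowest signal that counts as above background, on the log2 scale with the offset. It does not hold for the male pair alone, where the log2 ratios were -0.76 for Cyp3a25 and -0.65 for Cyp3a57. In the female pair both genes had -1.21. The limma adjusted p was 0.0868 and 0.137, and since both genes passed the filter through the control pools, these and any p from another background correction are no support for a difference. Cyp3a59, above background in 1 pool and not tested, had 12 and 2.64, then 4.58 and 1.58. The brightest probe of Cyp3a11, the main adult liver form, had log2 ratios of 0.11 and 0.41, but it also lists transcripts of Cyp3a41a, Cyp3a41b and Cyp3a44, and the probe that lists Cyp3a11 alone was not above background. Cyp3a13 had 0.14 and -0.02, while Cyp3a16, Cyp3a41b and Cyp3a44 were not well above background in any pool. Cyp3a25, Cyp3a57 and Cyp3a59 had their highest signals in the female control pool, and so did Adipoq, a defining adipocyte marker, with 85.9 in that pool against 12.3, 13.1 and 8.24 in the female Pparg-cKO, male control and male Pparg-cKO pools. Retn, the other adipocyte marker tested, had 11.9 and 9.41, then 4.08 and 6.96, with log2 ratios of -0.07 and 0.21. Adipoq makes up most of the female control sum: the adipocyte list of 5 summed to 105 and 26.9, then 23.0 and 18.9, and Cfd and Lep were not above background in any pool. Its part in the Cyp3a values was not tested.

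Family 1 was represented by Cyp1b1, which hydroxylates estrogens and aromatic hydrocarbons and is known from mesenchyme. Its signals were 312 and 307 in the female pair and 294 and 286 in the male pair, control first, a mean log2 ratio of -0.06 (limma adjusted p = 0.957), which was 0.04 under median centring. Cyp1a1 and Cyp1a2, the classical targets of the dioxin receptor Ahr, were not well above background in any pool.

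Of the retinoic acid hydroxylases, only Cyp26b1 was measurable. Its signals were 108 and 93.0 in the female pair and 104 and 108 in the male pair, a mean log2 ratio of -0.02 (limma adjusted p = 0.994), with the pools overlapping. Cyp26a1 and Cyp26c1 were not well above background in any pool.

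Among the vitamin D enzymes, Cyp2r1, a hydroxylase of carbon 25, had signals of 154 and 181 in the female pair and of 162 and 106 in the male pair. Its log2 ratios of 0.24 and -0.59 differed in sign (limma adjusted p = 0.924). The second probe gave -0.17 and -0.55, so that only the lower value on the male array was seen with both probes. Cyp27b1, which makes the active hormone, was between 12.2 and 14.7 in all pools, a mean log2 ratio of 0.05. Cyp24a1, which breaks it down, was between 2.44 and 3.12 and above background in 2 pools.

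The 6 genes of steroid hormone synthesis were faint, and none of the 4 tested was called. Cyp21a1, the adrenal 21-hydroxylase, had signals of 73.2 and 54.8 in the female pair and of 54.1 and 45 in the male pair, with log2 ratios of -0.33 and -0.18 (limma adjusted p = 0.634). Cyp11b1, the enzyme of the last step to corticosterone, had 15.0 and 5.63, then 4.49 and 4.06 (limma adjusted p = 0.721), and was well above background only in the female control and male Pparg-cKO pools. Cyp21a1 was highest in the female control pool. So was Hsd3b1, a steroid cell marker, with 35.3 and 15.8, then 23.0 and 12.9. Nr5a1, the brightest of the steroid cell markers, was instead highest in the female Pparg-cKO pool, with 174 and 188, then 176 and 137. The 6 adrenal and gonadal markers on the array summed to 365 and 319, then 322 and 257. Of the 5 tested, 4 were lower on both arrays, against 26.2% of all genes, and none was at 0. Their part in the values of Cyp21a1 and Cyp11b1 was not tested. Cyp17a1, the 17-hydroxylase and lyase, was between 46.9 and 51.6 in all pools, with log2 ratios of 0.08 and -0.04. Cyp11a1, which opens the pathway by cutting the side chain of cholesterol, was between 5.79 and 10, while Cyp11b2 and the aromatase gene Cyp19a1 were not well above background in any pool.

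Of the sterol and bile acid enzymes, Cyp7b1, which hydroxylates oxysterols at carbon 7, had signals of 1038 in the control and 881 in the Pparg-cKO pool of the female pair, and of 1182 and 842 in the male pair. Both control pools were above both Pparg-cKO pools, by 1.18-fold and 1.4-fold. The difference was -0.35 ± 0.14 on the log2 scale (SD, n = 2 arrays; limma adjusted p = 0.469). Cyp27a1, the mitochondrial sterol 27-hydroxylase, was between 260 and 297 in all pools, a mean log2 ratio of -0.02. Cyp39a1 had log2 ratios of -0.10 and 0.29 and Cyp46a1, the cholesterol 24-hydroxylase of neurons, 0.08 and 0.02. Cyp7a1 and Cyp8b1, the bile acid enzymes of hepatocytes, were not well above background in any pool, although the hepatocyte markers were. Cyp51, the lanosterol demethylase, whose symbol carries no subfamily letter, had log2 ratios of 0.17 and -0.30. Tbxas1 and Ptgis, P450 enzymes that make thromboxane and prostacyclin, had mean log2 ratios of 0.05 and 0.01.

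**Figure D4:**
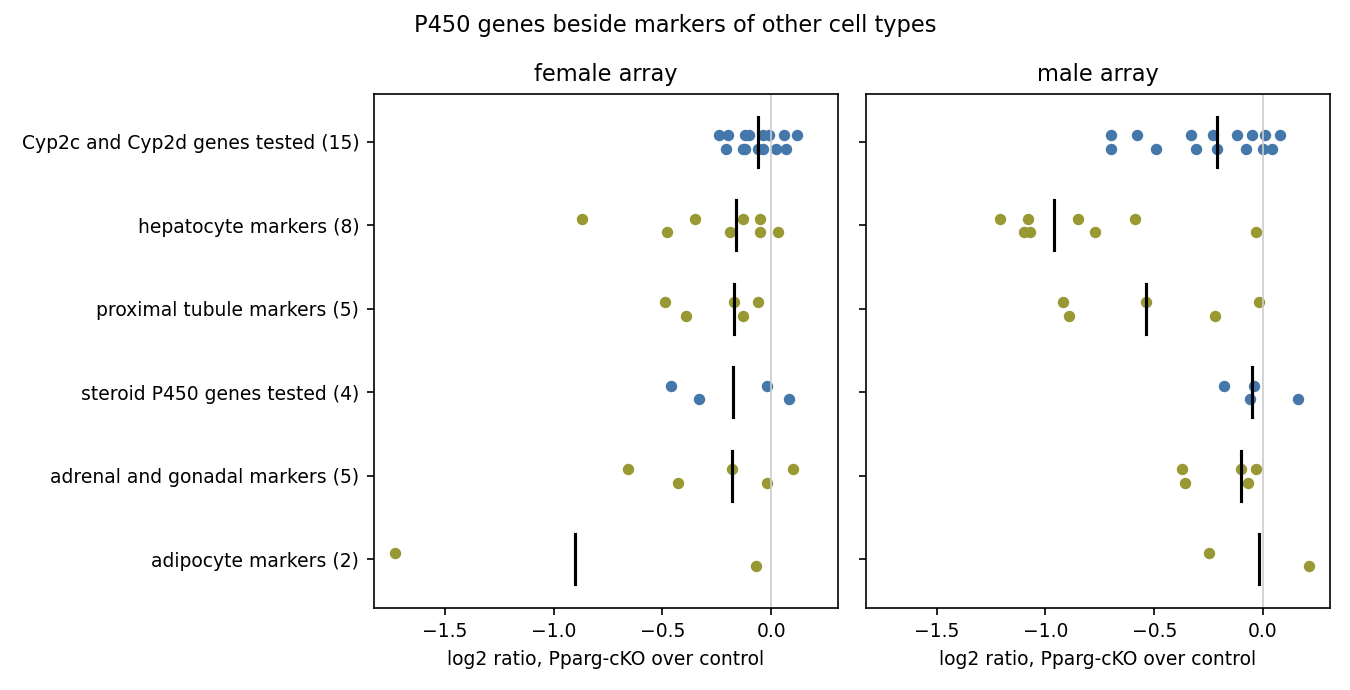
Log2 ratio of Pparg-cKO over control (x axis) on the female (left) and male (right) array for P450 groups (blue) and for markers of other cell types (olive), tested genes only, with the number of genes in parentheses and the median as a black line. Hepatocyte markers have medians of -0.16 and -0.96, and among the Cyp2c and Cyp2d genes the lowest values, -0.70, are on the male array.

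Partners and regulators of P450 enzymes gave a single call, Pparg itself. Of 12 redox partners on the array 11 were tested, and none was called or passed the fold rule. Por, the reductase that feeds electrons to most microsomal P450 enzymes, had signals of 600 and 528, then 597 and 998, so that the male Pparg-cKO pool stood apart (limma adjusted p = 0.859). Fdx1, the mitochondrial ferredoxin, had log2 ratios of -0.11 and -0.08. None of the 8 genes of heme synthesis was called, and Alas1, the rate-limiting step, had log2 ratios of 0.13 and 0.19. Of 22 nuclear receptor and Ahr pathway genes 20 were tested, and the 1 call was Pparg. Ahr had a mean log2 ratio of 0.37 (limma adjusted p = 0.385). Nr1i2, the xenobiotic receptor that drives Cyp3a genes in liver, was not well above background in any pool, and Ppara had log2 ratios of 0.02 and -0.25.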

How the data were processed

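Ureter RNA pools were hybridised to 2 two-colour Agilent arrays (design on mm9). The deposited scanner files hold, per the file headers, spot intensity values from Feature Extraction 10.7.3.1, mean and background signals, processed signals (background-subtracted, dye-normalised) and log10 ratios. The authors also deposited a value table, a score here: signed fold changes per probe, with floor and averaging not given in the sources used here. Mean signals were corrected by normexp (offset 50), loess-normalised within arrays with control spots at weight 0 (limma 3.58.1, R 4.3.3), cleared of flagged spots (2.87% and 3.24%) and averaged over the 4 spots of a probe. The brightest probe stood for a gene. limma's lmFit and eBayes tested the mean of the 2 turned log2 ratios, in a two-sided test adjusted by Benjamini-Hochberg across 22499 genes. With 1 residual degree of freedom, 2 arrays limit the precision, and p-values measure the spread between these pools only. The fits were tested on simulated data. Of 121 probes 117 matched a RefSeq transcript. Some reference sequences are absent from the tables used.

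Members and lists were chosen with earlier results of these data known. Named genes were every P450 gene past the fold rule or called, those past 1.5-fold in opposite directions, the 10 largest mean ratios, the 5 brightest, the brightest of each family, and the retinoic acid, vitamin D, steroid and sterol groups. Lists covered redox partners, heme synthesis, nuclear receptors, P450 enzymes outside the symbol rule and markers of hepatocytes, steroid cells, proximal tubule, adipocytes, club cells, urothelium and smooth muscle. Alternatives changed background correction, normalisation, probe choice, flags, filters and thresholds, used the deposited table, or left out an array.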

Additional observations from a re-analysis of the deposited data

Results flagged for a closer look

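Among 20 P450 genes compared for opposite signs, 3 had the female and the male pair of pools at least 1.1-fold apart in opposite directions. How many of all genes meet this rule was not counted. Without a minimum fold, 10626 of all 22499 genes tested differed in sign, and 27 of the 60 P450 genes tested. The male minus female difference of log2 ratios was -0.44 for Cyp20a1, -0.83 for Cyp2r1 and 0.62 for Cyp2s1. For Cyp2s1 the signals were 245 and 213 on the female array, control first, and 274 and 382 on the male array. The second probes gave the same sign on both arrays for Cyp20a1 (0.17 and 0.08) and for Cyp2r1 (-0.17 and -0.55). With 1 array per sex the difference was not tested, and sex, dye orientation and array cannot be told apart.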

How the results depend on the processing

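The 2 genes past the fold rule, Cyp4f15 and Cyp4f39, were the same under scanner-processed signals, normexp without the offset, median centring, the deposited table, the median over all probes, outlier flags kept and a signal minimum of 50. A 2-fold threshold left 1, Cyp4f15, and a signal minimum of 200 left 0. Leaving out either array gave 3, with Cyp2r1 added without replicate 1 and Cyp2e1 added without replicate 2. A minimum of 20, chosen after seeing the data, gave 5, with Cyp2f2, Cyp4a12a and Cyp4a12b added, and so did scanner-processed signals with that minimum. limma called 7 P450 genes under normexp without the offset, adding Cyp4f39 and also Cyp3a25 and Cyp3a57, which passed the filter through the control pools only and so do not count as support, and 0 with the deposited table, where it called 0 of all 22499 genes, 8 P450 genes had an unadjusted p under 0.05 and the lowest adjusted p was 0.533. In the remaining alternatives limma called 4 to 6. The 4 called genes kept their direction in each alternative; outside the deposited table their adjusted p was at most 0.0498, and their largest log2 ratios were -3.26 for Cyp4f15, 2.86 for Cyp2f2 and 2.30 for Cyp4a12b, with none given for Cyp4a12a, whose male control pool was not well above background. Median centring turned the sign of Cyp1b1 (0.04), Cyp26b1 (0.06) and Cyp27a1 (0.08), which were not called. The median log2 ratio of the P450 genes, -0.013, was -0.028 with scanner-processed signals, -0.019 without the offset, 0.008 with median centring, 0.000 in the deposited table, -0.005 with dim probes kept, -0.018 over bright genes only and -0.010 without either array. The causes were not tested. Each array is a ratio within a pair of pools, so that the fit is already paired. Signal over background left 36 of the 96 P450 genes untested.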
